A study of Mus musculus with 4 samples.

Results

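The inflammasome genes described here are 10 of the 21834 genes of the deposited table, taken by name: the sensors Nlrp3, Mefv, Nlrc4, Aim2 and Nlrp1b, the adaptor Pycard, the caspases Casp1, Casp4 and Casp8, and the pore-forming protein Gsdmd. They were measured by RNA sequencing of monocytes and macrophages grown from mouse bone marrow and collected after 3 days with RANKL, the cytokine that turns such precursors into bone-resorbing osteoclasts. Of the 4 libraries, 2 carry the genotype label Nat10 conditional knockout, called cKO-labelled here, and 2 the label wild type (WT). NAT10 is the acetyltransferase that makes N4-acetylcytidine in RNA. Both groups had the same RANKL treatment and the same wash with cycloheximide, which stops ribosomes from moving along mRNA. No source used here gives the Cre driver, the deleted exons, the strain, the age of the mice or whether replicates stem from different mice. The p-values therefore measure library spread, which may be technical.

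An inflammasome is a protein complex that forms in the cytosol of myeloid cells when a sensor meets its trigger. The sensor recruits the adaptor ASC, encoded by Pycard, which gathers and activates caspase-1. Caspase-1 cuts the precursors of interleukin-1β and interleukin-18 and also gasdermin D, whose released fragment forms pores in the plasma membrane, and the cell can die by pyroptosis. Mouse Casp4, also called caspase-11, acts beside this route: it binds bacterial lipopolysaccharide in the cytosol and cuts gasdermin D itself. Transcription of Nlrp3 and of the interleukin-1β gene is raised by NF-κB, a step known as priming. In bone, interleukin-1 is known to promote osteoclast formation and activity.

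The starts of the member genes show which sequences precede them. RefSeq promoters on GRCm38.p6, each 300 bases long with 250 before and 50 after the start, were matched by symbol for 9 of the 10 members, and the table has 12 such promoters for them. Gsdmd was not matched. Both strands were searched for 4 motifs: the kappa B motif of NF-κB, the ISRE core of interferon-responsive genes (GAAA, any 2 bases, GAAA), the GAS element of STAT factors (TTCNNNGAA) and the PU.1 core (GAGGAAGT), which may overlap one another. The promoters below are those of a sensor and of a caspase that were lower in the cKO-labelled libraries (Nlrp3 and Casp4), of the adaptor that did not pass the test (Pycard) and of the caspase that was higher (Casp8). For Nlrp3 and Casp4, promoters with a match were chosen for display. Capitals mark a kappa B match that reads on the opposite strand in Nlrp3, a pair of overlapping kappa B matches on the printed strand in Casp4 and the PU.1 core on the opposite strand in Pycard. The Casp8 promoter had no match. The coordinates are chr11:59541319-59541618 on the plus strand for Nlrp3, chr9:5308599-5308898 on the plus strand for Casp4, chr7:127993818-127994117 on the minus strand for Pycard and chr1:58802252-58802551 on the plus strand for Casp8, and each is written 5′ to 3′ on the strand of its gene.
Nlrp3: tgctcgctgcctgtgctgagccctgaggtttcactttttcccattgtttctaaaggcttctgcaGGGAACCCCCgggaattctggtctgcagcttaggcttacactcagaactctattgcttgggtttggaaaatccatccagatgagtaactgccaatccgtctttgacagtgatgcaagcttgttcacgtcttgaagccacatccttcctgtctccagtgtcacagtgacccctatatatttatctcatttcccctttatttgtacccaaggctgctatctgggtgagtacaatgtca
Casp4: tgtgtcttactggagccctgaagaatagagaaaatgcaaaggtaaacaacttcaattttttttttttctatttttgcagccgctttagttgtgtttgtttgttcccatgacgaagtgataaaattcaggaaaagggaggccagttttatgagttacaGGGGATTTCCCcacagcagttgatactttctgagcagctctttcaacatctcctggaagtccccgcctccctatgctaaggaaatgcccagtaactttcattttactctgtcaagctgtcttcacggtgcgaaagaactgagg
Pycard: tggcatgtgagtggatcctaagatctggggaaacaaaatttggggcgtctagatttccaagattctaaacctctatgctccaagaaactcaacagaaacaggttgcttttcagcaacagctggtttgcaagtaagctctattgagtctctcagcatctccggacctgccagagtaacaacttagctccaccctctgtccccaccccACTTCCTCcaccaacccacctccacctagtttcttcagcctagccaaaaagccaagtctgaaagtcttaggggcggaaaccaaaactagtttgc
Casp8: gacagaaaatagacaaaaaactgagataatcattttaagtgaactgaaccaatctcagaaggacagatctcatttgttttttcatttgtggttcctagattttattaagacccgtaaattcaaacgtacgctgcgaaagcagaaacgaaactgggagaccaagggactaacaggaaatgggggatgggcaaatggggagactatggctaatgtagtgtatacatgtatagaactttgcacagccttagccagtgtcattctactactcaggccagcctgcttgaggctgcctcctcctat

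Of the 12 member promoters, 3 held a kappa B match, which 4.51% of all 32851 RefSeq promoters of the same length held. These were the printed Nlrp3 promoter and 2 overlapping promoters of Casp4. The other Nlrp3 promoter and those of Mefv, Nlrc4 and Casp1, which were also lower, had no match to any of the 4 motifs. The PU.1 core was found in 3 member promoters, those of Pycard, Aim2 and 1 of Nlrp1b, and in 3.20% of all promoters. The ISRE core was found in 0 of the 12, against 3.44% of all promoters, and the GAS element in 0 of the 12, against 8.30%. A match describes letters in this window and is not a binding site.

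Inflammasome sensors, caspases and gasdermin mostly fell in the cKO-labelled libraries. Nlrp3, Mefv and Casp4 fell most (log2 fold changes of -1.07, -0.98 and -0.96), Casp1, Nlrc4 and Gsdmd fell by less (-0.58, -0.56 and -0.49), and Casp8 (0.44) and the weakly expressed Nlrp1b (1.65) were higher. By edgeR's quasi-likelihood test with Benjamini-Hochberg adjustment over 11448 genes, 6 of the 10 members were called lower and 2 higher at an adjusted p under 0.05, and Aim2 and Pycard did not pass. Over all genes tested, 14.4% were called lower, 14.4% were called higher and 28.8% were called in either direction. With upper-quartile factors the split over all genes was 2247 higher and 1110 lower, against 1652 and 1650 with TMM factors. Upper-quartile factors gave 3 members higher and 6 lower. With DESeq2 neither Nlrp1b (1.62, DESeq2 adjusted p = 0.1145) nor Casp8 (0.43, DESeq2 adjusted p = 0.0822) was called higher. The members' median log2 fold change, cKO-labelled minus WT, was -0.52, and that of all genes was 0.0075. The groups did not overlap in CPM, a gene's count as a share of its library's TMM-scaled total, for any of the 10 members, and 63.6% of all genes tested also showed no overlap. Summed over the members, the level was 341.5 and 363.9 CPM in the cKO-labelled libraries, against 530.8 and 552 CPM in the WT libraries.

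**Figure D1:**
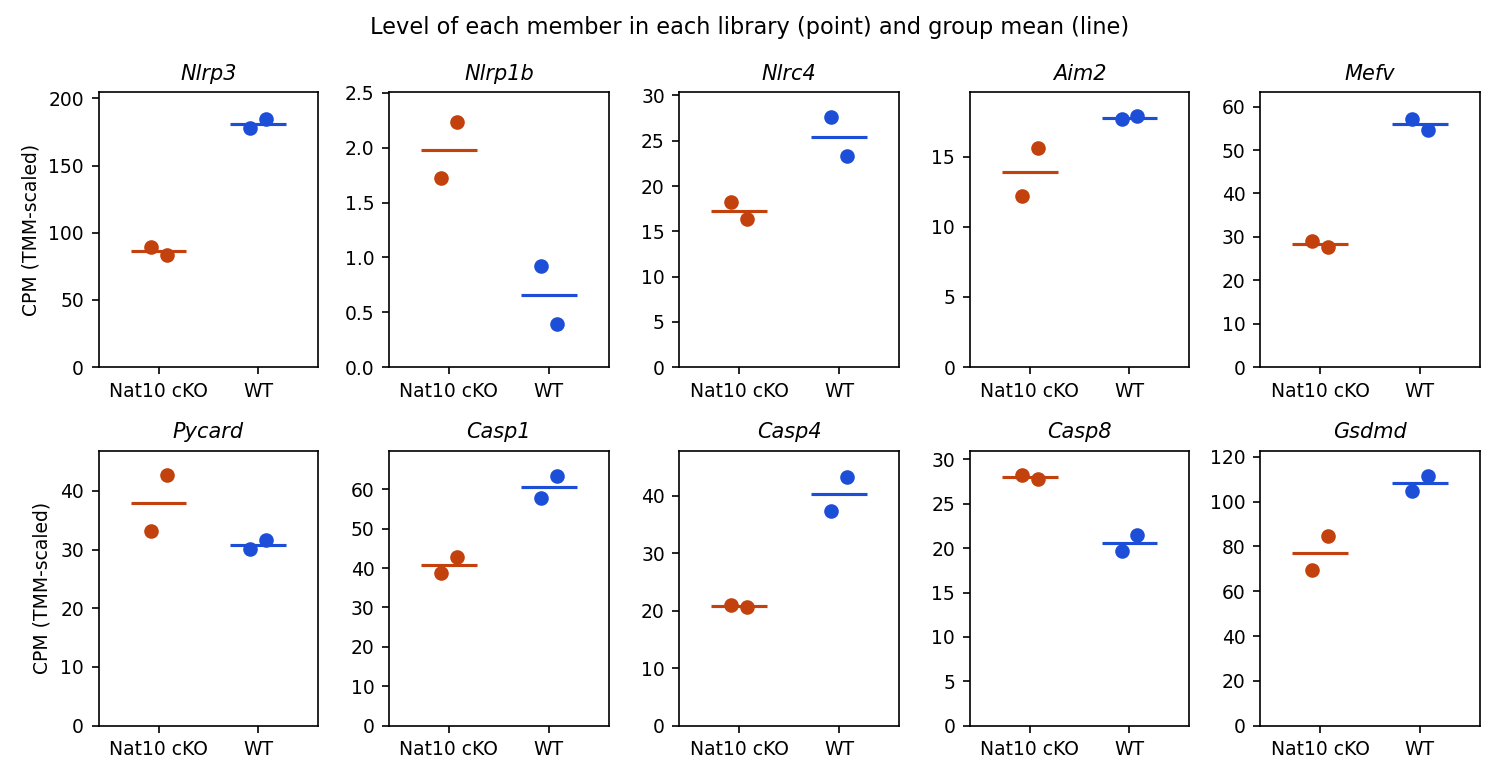
Level of each of the 10 members in CPM, each panel from 0 on its own linear axis, with 1 point per library and a line at the group mean, the 2 cKO-labelled libraries to the left of the 2 WT libraries. Nlrp3 lies at 83.4 and 89.7 CPM in the cKO-labelled libraries, below 178 and 185 CPM in the WT libraries, and the points of the 2 groups do not overlap for any member.

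The library labels and the culture bear on how these values are read. Total counts were 11291993 and 14097638 in the cKO-labelled libraries and 10037338 and 13063821 in the WT libraries, and the members took 3960 and 5224 counts against 5198 and 7048. Nat10 itself had 184 and 205 counts in the cKO-labelled libraries and 165 and 238 in the WT libraries. Its log2 fold change of -0.24 (SE 0.153, 95% confidence interval, CI, -0.56 to 0.08) did not pass (edgeR adjusted p = 0.263), so its level does not check the labels. Osteoclast markers were present, at summed levels of 6146 and 6876 CPM in the cKO-labelled libraries and 4772 and 5053 CPM in the WT libraries. Of 9 tested, 6 were called higher and 2 lower, beside 14.4% higher and 14.4% lower over all genes tested. Acp5 alone had 2697 and 3128.4 CPM in the cKO-labelled libraries and 1922.8 and 2023.5 CPM in the WT libraries. The lower ones were Calcr (-0.95) and Dcstamp (-0.42), and Ctsk (0.14) was not called. Macrophage markers summed to 6473 and 6478 CPM in the cKO-labelled libraries, against 4997 and 5267 CPM in the WT libraries. Of these 10 markers, 4 were called higher and 3 lower, with a median log2 fold change of -0.04. Adgre1 alone had 3522 and 3389 CPM in the cKO-labelled libraries and 2232 and 2336 CPM in the WT libraries, while Mrc1 (-1.51), Cd14 (-0.50) and C1qa (-0.40) were lower.

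Markers of other cell types also moved between the groups. Over all genes tested, 14.4% were called higher and 14.4% lower, and the counts of each marker list stand beside these shares. Stromal markers were called higher in 9 of 9 tested (10 listed). They summed to 1068 and 1032 CPM in the cKO-labelled libraries, against 287.2 and 271.9 CPM in the WT libraries. Of this sum, Col1a1 had 384.8 and 383.8 CPM and Col1a2 had 489.0 and 455.7 CPM in the cKO-labelled libraries. In the WT libraries Col1a1 had 81.9 and 83.7 CPM and Col1a2 had 133.8 and 123.4 CPM. Pdgfra had 34 and 48 counts in the cKO-labelled libraries and 9 and 9 in the WT libraries. It passed the filter on low counts through the cKO-labelled ones, where it is high. Neutrophil markers had 5 higher and 1 lower of 7 tested (10 listed), at 2002 and 2295 CPM against 1516 and 1546 CPM in WT, while Ly6g was at 0 in every library. Lcn2 alone had 1174 and 1361.5 CPM in the cKO-labelled libraries and 988 and 1031 CPM in the WT libraries. Csf3r was the lower one (-0.56), and Camp was not called (-0.04). Dendritic cell markers had 5 lower and 0 higher of 7 tested (9 listed), at 178.8 and 195.3 CPM in the cKO-labelled libraries against 726 and 780 CPM in the WT libraries, with Cd209a at 0. The lower ones were Ccr7, H2-Aa, H2-Ab1, H2-Eb1 and Cd74, of which all but Ccr7 belong to MHC class II presentation. Cd74 alone had 62.0 and 72.2 CPM in the cKO-labelled libraries and 346.5 and 382.7 CPM in the WT libraries. Itgax (0.16) and Zbtb46 (-0.24) were not called. Monocyte markers had 3 higher and 1 lower of 7 tested, at 251.4 and 259.8 CPM against 162.1 and 176.5 CPM in WT. Of this sum, Fn1 alone had 165.4 and 174.3 CPM in the cKO-labelled libraries and 62.8 and 55.8 CPM in the WT libraries. Vcan, the lower one, was at -1.95, with 16.9 and 14.5 CPM against 62.8 and 58.6 CPM in WT. Of 8 T, NK and B cell markers, 2 were tested and 0 called, and Cd3d and Nkg7 were at 0. Their part in the results on the members was not tested, and in these bulk libraries fewer cells of a type and less RNA per cell cannot be told apart.

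Nlrp3, the sensor that responds to potassium efflux and many kinds of cell damage, was the most highly counted sensor. Nlrp3 (ENSMUSG00000032691, chromosome 11, 59432394 to 59457782 on GRCm39, the build of all gene coordinates given here) was counted 1040 and 1197 times in the cKO-labelled libraries and 1741 and 2356 in the WT libraries. This gave 89.7 and 83.4 CPM (86.5 ± 4.46, SD, n = 2) in the cKO-labelled libraries, against 178 and 185 CPM (181 ± 4.77, SD, n = 2) in the WT libraries. Both cKO-labelled libraries were below both WT libraries, and the log2 fold change was -1.07 (SE 0.10, 95% CI -1.28 to -0.857; edgeR adjusted p = 2.31e-07).

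Mefv encodes pyrin, a sensor that responds when bacterial toxins inactivate RhoA. Mefv (ENSMUSG00000022534, chromosome 16, 3525082 to 3535961) stood at 29.1 and 27.6 CPM (28.4 ± 1.10, SD, n = 2) in the cKO-labelled libraries and at 57.2 and 54.6 CPM (55.9 ± 1.83, SD, n = 2) in the WT libraries. The 2 WT libraries were close to each other and above both others. The log2 fold change was -0.98 (SE 0.114, 95% CI -1.22 to -0.739; edgeR adjusted p = 3.72e-06).

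Nlrc4 forms inflammasomes with NAIP proteins, which bind bacterial flagellin and parts of the type III secretion apparatus. Nlrc4 (ENSMUSG00000039193, chromosome 17, 74732433 to 74766137) had 18.2 and 16.4 CPM (17.3 ± 1.29, SD, n = 2) in the cKO-labelled libraries and 27.6 and 23.3 CPM (25.5 ± 2.99, SD, n = 2) in the WT libraries. The gap between the groups was smaller than for Nlrp3, with a log2 fold change of -0.56 (SE 0.145, 95% CI -0.860 to -0.253; edgeR adjusted p = 0.00723). Without WT replicate 1 it was -0.44 and did not pass (adjusted p = 0.0914), the highest adjusted p over its 10 alternatives.

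Aim2 binds double-stranded DNA in the cytosol. Aim2 (ENSMUSG00000037860, chromosome 1, 173178445 to 173293606) had 12.2 and 15.6 CPM (13.9 ± 2.44, SD, n = 2) in the cKO-labelled libraries and 17.7 and 17.9 CPM (17.8 ± 0.136, SD, n = 2) in the WT libraries. The WT libraries were almost equal, and cKO-labelled replicate 2 lay nearer to them than replicate 1. The log2 fold change was -0.35 (SE 0.162, 95% CI -0.689 to -0.0077) and did not pass (edgeR adjusted p = 0.119). It passed only without cKO-labelled replicate 2, at -0.55 (adjusted p = 0.0273), and its adjusted p over 10 alternatives ran from 0.0273 to 0.469. Cadm3 overlaps Aim2 in the table, but had 4, 0, 2 and 1 counts in the libraries (cKO-labelled, then WT).

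Nlrp1b, which in some mouse strains is cut and thereby activated by anthrax lethal factor, was the only sensor called higher, at a low level. Nlrp1b (ENSMUSG00000070390, chromosome 11, 71043928 to 71121559) had 20 and 32 counts in the cKO-labelled libraries and 9 and 5 counts in the WT libraries, which is 1.72 and 2.23 CPM against 0.919 and 0.392 CPM. Its log2 fold change was 1.65 (SE 0.528, 95% CI 0.541 to 2.76; edgeR adjusted p = 0.0251). Nlrp1b passed the filter on low counts through the cKO-labelled libraries, since 1 of the 2 WT libraries was above the filter's 0.821 CPM, and the other 9 members were above it in all 4 libraries. The call was lost with DESeq2 (1.62, adjusted p = 0.1145), without cKO-labelled replicate 2 (1.44, adjusted p = 0.180) and without WT replicate 2 (1.10, adjusted p = 0.278), and its adjusted p ran from 0.00983 to 0.278 over 10 alternatives. Its close copy Nlrp1a had 13 and 27 counts in the cKO-labelled libraries and 11 and 20 in the WT libraries, and reads can be shared between these copies, so the value of Nlrp1b is uncertain.

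Pycard, whose product ASC joins the sensors to caspase-1, did not pass in either direction. Pycard (ENSMUSG00000030793, chromosome 7, 127588880 to 127593039) had 33.2 and 42.8 CPM (38.0 ± 6.77, SD, n = 2) in the cKO-labelled libraries and 30.0 and 31.6 CPM (30.8 ± 1.09, SD, n = 2) in the WT libraries. cKO-labelled replicate 2 was far above the other libraries, and replicate 1 was close to the WT libraries. The log2 fold change of 0.31 (SE 0.133, 95% CI 0.0278 to 0.584) did not pass (edgeR adjusted p = 0.0931). Without cKO-labelled replicate 1 it was 0.46 and passed (adjusted p = 0.00523), while without cKO-labelled replicate 2 it was 0.11 (adjusted p = 0.670). It also passed with upper-quartile factors (0.41, adjusted p = 0.0325) and with library sizes alone (0.37, adjusted p = 0.0436).

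Casp1 encodes the caspase that inflammasomes activate. Casp1 (ENSMUSG00000025888, chromosome 9, 5298508 to 5307290) had 38.6 and 42.8 CPM (40.7 ± 2.93, SD, n = 2) in the cKO-labelled libraries, against 57.9 and 63.4 CPM (60.7 ± 3.92, SD, n = 2) in the WT libraries. Both cKO-labelled libraries were below both WT libraries, with a log2 fold change of -0.58 (SE 0.112, 95% CI -0.811 to -0.340; edgeR adjusted p = 0.000762). Casp4, the caspase that binds lipopolysaccharide, lies next to Casp1, and their annotated ends are 1538 bases apart. Casp4 (ENSMUSG00000033538, chromosome 9, 5308828 to 5336783) had 21.0 and 20.6 CPM (20.8 ± 0.237, SD, n = 2) in the cKO-labelled libraries, against 37.3 and 43.2 CPM (40.2 ± 4.16, SD, n = 2) in the WT libraries. Its log2 fold change was -0.96 (SE 0.128, 95% CI -1.22 to -0.687; edgeR adjusted p = 1.72e-05).

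Casp8, the initiator caspase of death receptors, also cuts gasdermin D in some settings and restrains necroptosis. Casp8 (ENSMUSG00000026029, chromosome 1, 58834533 to 58886662) had 28.3 and 27.8 CPM (28.04 ± 0.347, SD, n = 2) in the cKO-labelled libraries, against 19.7 and 21.5 CPM (20.6 ± 1.29, SD, n = 2) in the WT libraries. The log2 fold change was 0.44 (SE 0.132, 95% CI 0.162 to 0.717; edgeR adjusted p = 0.0178). The call was lost with DESeq2 (0.43, adjusted p = 0.0822), without WT replicate 1 (0.37, adjusted p = 0.152) and without WT replicate 2 (0.50, adjusted p = 0.0687), and the adjusted p ran from 0.00224 to 0.152 over 10 alternatives.

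Gsdmd encodes gasdermin D, the pore former that Casp1 and Casp4 cut. Gsdmd (ENSMUSG00000022575, chromosome 15, 75734176 to 75739257) had 69.5 and 84.8 CPM (77.1 ± 10.8, SD, n = 2) in the cKO-labelled libraries, against 105 and 112 CPM (108 ± 4.84, SD, n = 2) in the WT libraries. The cKO-labelled replicates stood further apart than those of WT. The log2 fold change was -0.49 (SE 0.112, 95% CI -0.721 to -0.252; edgeR adjusted p = 0.00299). Without WT replicate 2 it was -0.45 and did not pass (adjusted p = 0.068), the highest over its 10 alternatives.

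**Figure D2:**
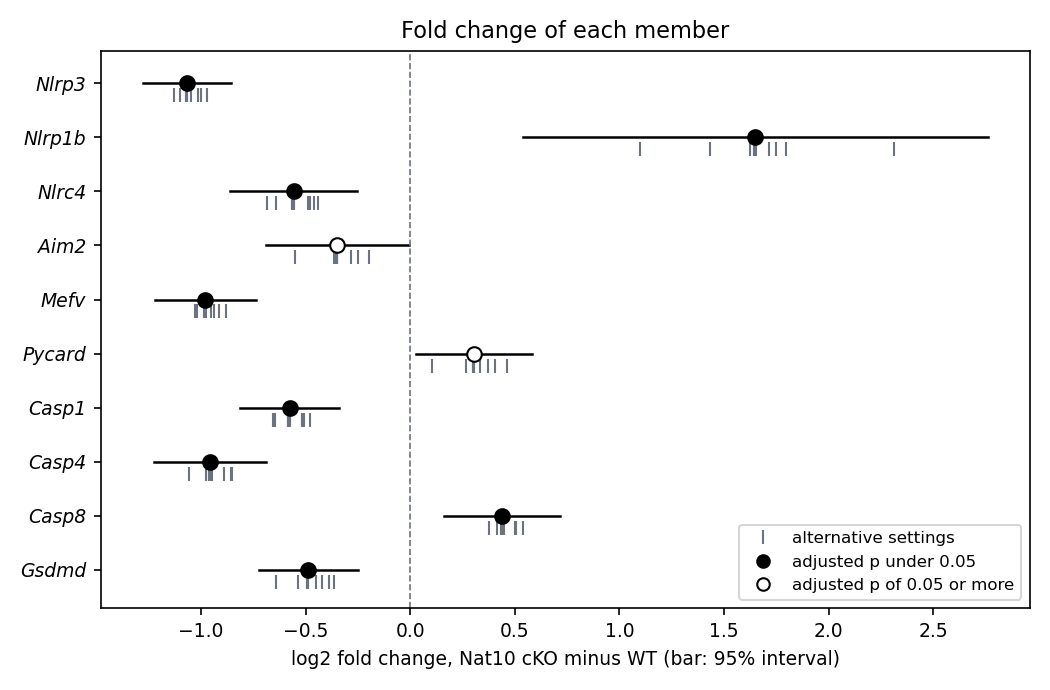
Log2 fold change of each member, cKO-labelled minus WT, with its 95% CI from the edgeR fit and the values under the alternatives as small marks; filled points passed at an adjusted p under 0.05. Nlrp3 (-1.07), Mefv (-0.98) and Casp4 (-0.96) lie furthest to the lower side, and Nlrp1b (1.65) has the widest interval.

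Per kilobase of exons, Gsdmd, Nlrp3 and Casp1 were the most abundant members in both groups. Gsdmd had 32.5 ± 4.54 CPM per kb in the cKO-labelled libraries and 45.5 ± 2.03 in the WT libraries (SD, n = 2 each), and it ranked highest in all 4. Nlrp3 had 21.3 ± 1.10 CPM per kb in the cKO-labelled libraries, below Casp1 at 27.2 ± 1.95, while in the WT libraries Nlrp3 had 44.7 ± 1.18 and Casp1 40.5 ± 2.62. The WT levels of Gsdmd and Nlrp3 overlapped, so their order within WT is not resolved. Pycard had 10.0 ± 1.78 CPM per kb in the cKO-labelled libraries, where Casp8 (9.69 ± 0.120) stood above Mefv (8.73 ± 0.340) without overlap, and Pycard's replicates lay so far apart that it could not be placed against either. In the WT libraries Mefv had 17.2 ± 0.564 CPM per kb and stood above Casp4 (10.8 ± 1.12), Pycard (8.10 ± 0.287) and Casp8 (7.13 ± 0.447). Casp4 had 5.60 ± 0.0640 CPM per kb in the cKO-labelled libraries. Aim2 (3.97 ± 0.696) and Nlrc4 (3.60 ± 0.269) could not be told apart there, nor could Nlrc4 (5.30 ± 0.622) and Aim2 (5.07 ± 0.0387) in the WT libraries. Nlrp1b was the lowest, at 0.314 ± 0.0566 CPM per kb in the cKO-labelled libraries and 0.104 ± 0.0592 in the WT libraries. Exon lengths came from GENCODE on GRCm38. The order of the members depends on that length. Per kilobase of coding sequence (0.579 kb, against 3.80 kb of exons), Pycard had 65.6 CPM per kb in the cKO-labelled libraries and 53.2 in WT. This placed it at rank 1 and rank 3. By mean level per coding length, Casp4 (35.9) stood above Mefv (23.1) in the WT libraries. Aim2 then stood above Nlrc4, at 13.1 against 5.56 in the cKO-labelled libraries and 16.7 against 8.19 in WT.

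**Figure D3:**
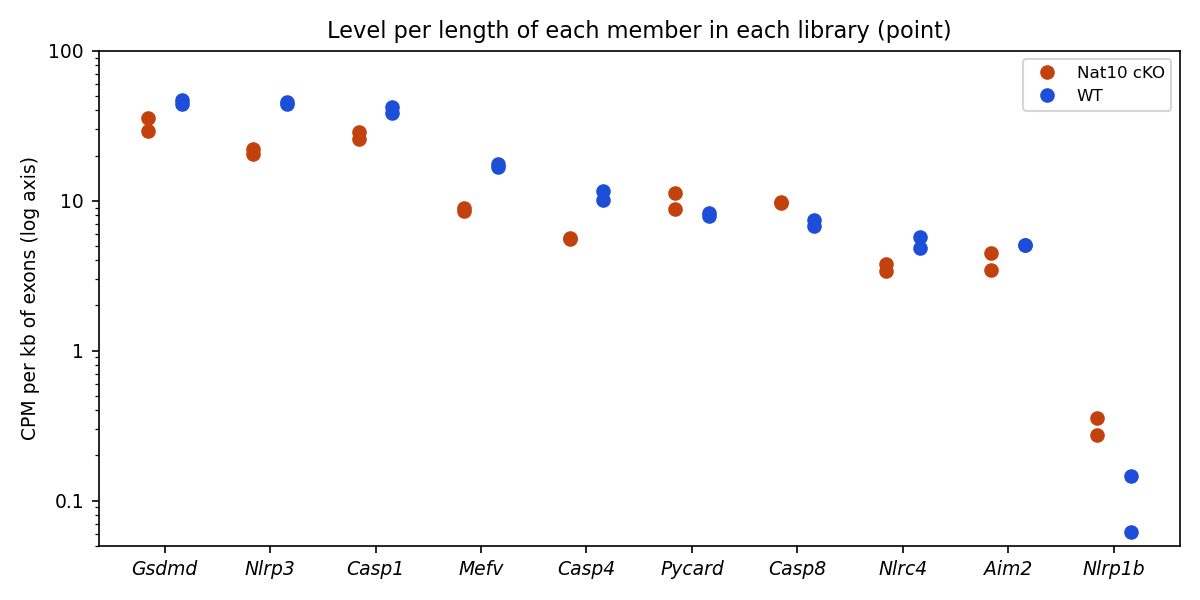
Level of each member per kilobase of exons (CPM per kb, log axis), with 1 point per library and the cKO-labelled libraries left of WT. Gsdmd, Nlrp3 and Casp1 lead in both groups, Nlrp1b is lowest at 0.314 and 0.104 CPM per kb, and Mefv stands below Casp8 in the cKO-labelled libraries but above it in WT.

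Ratios between genes of one library do not depend on how libraries are scaled. The pairs were chosen by role, with the values known, and 2 libraries against 2 cannot give an exact permutation p below 0.333, so none was tested. Per kilobase of exons, the Nlrp3 to Pycard ratio, sensor to adaptor, was 2.53 and 1.83 in the cKO-labelled libraries and 5.55 and 5.48 in the WT libraries. Mefv to Pycard was 1.03 and 0.754 against 2.23 and 2.02, and Nlrc4 to Pycard was 0.433 and 0.303 against 0.726 and 0.585. Aim2 stood to Pycard at 0.398 and 0.396 in the cKO-labelled libraries and at 0.639 and 0.614 in the WT libraries. Neither Aim2 nor Pycard passed alone, and all 4 of these ratios share Pycard as the denominator. These 4 sensors were lower relative to the adaptor in both cKO-labelled libraries. The pairs did not include Nlrp1b, the remaining sensor, which was called higher at 20 and 32 counts against 9 and 5 in the WT libraries. Casp1 to Pycard was 2.95 and 2.54 in the cKO-labelled libraries and 4.90 and 5.10 in WT, whereas Gsdmd to Casp1 overlapped, at 1.13 and 1.25 against 1.14 and 1.11. Casp4 to Casp1 was 0.219 and 0.195 against 0.260 and 0.275. Casp8 stood higher relative to Casp1 and Casp4, which were both called lower on their own. Casp8 to Casp1 was 0.379 and 0.336 in the cKO-labelled libraries and 0.176 and 0.176 in WT, and Casp8 to Casp4 was 1.73 and 1.73 against 0.678 and 0.640. Cflar encodes the caspase-8 inhibitor c-FLIP, and Casp8 to Cflar was 0.303 and 0.404 in the cKO-labelled libraries and 0.127 and 0.158 in the WT libraries. The sizes of these ratios depend on the lengths used, which cancel when a ratio is compared between the groups. Per kilobase of coding sequence, Pycard (65.6 CPM per kb) stood above Casp1 (33.8) and Nlrp3 (27.9) in the cKO-labelled libraries. In the WT libraries Nlrp3 had 58.5, Pycard 53.2 and Casp1 50.3.

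**Figure D4:**
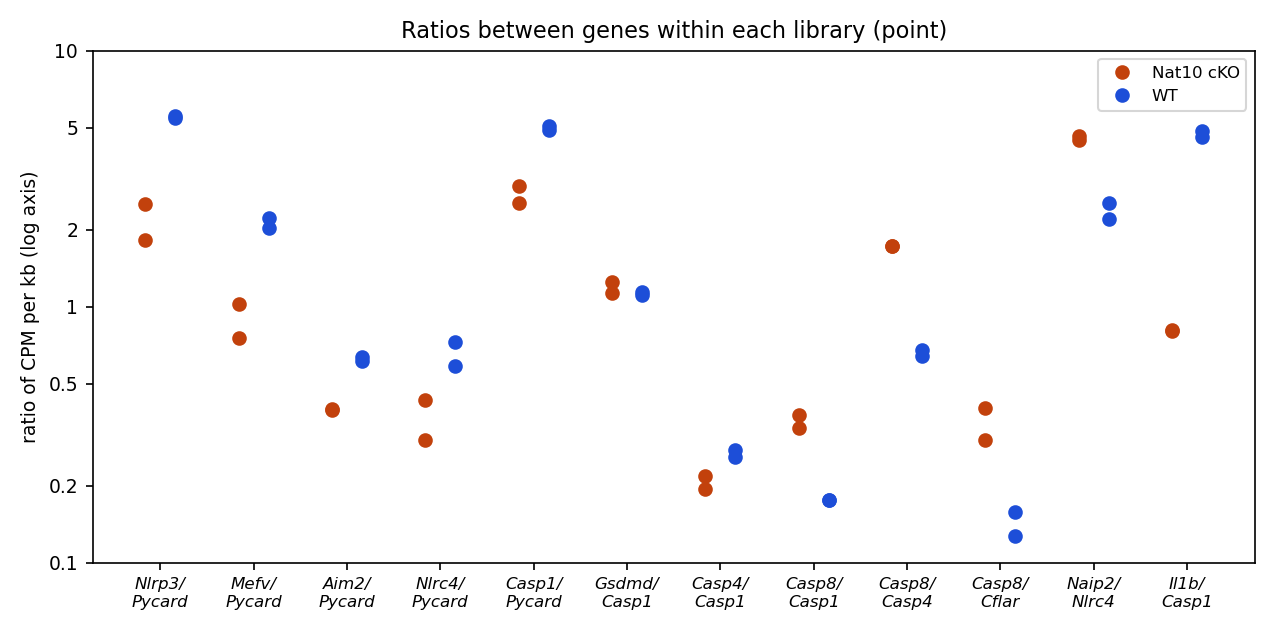
Ratio of CPM per kilobase of exons between genes of the same library (log axis), with 1 point per library, the cKO-labelled libraries left of WT. The Nlrp3 to Pycard ratio is 1.83 and 2.53 in the cKO-labelled libraries and 5.48 and 5.55 in WT, Casp8 to Casp4 stands at 1.73 against 0.640 and 0.678, and Gsdmd to Casp1 overlaps.

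The rest of the pathway was read from 7 lists of 79 genes in all, of which 78 were in the table and 71 were tested. Of these, 33 (46.5%) were called lower and 2 (2.82%) higher, with a median log2 fold change of -0.26. Over all genes tested, 14.4% were called lower and 14.4% higher, and the counts of each list stand beside these shares.

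Among 6 genes of inflammasome substrates and release, 3 were called lower and 0 higher. Il1b, which encodes the interleukin-1β precursor that caspase-1 cuts, had 39.4 and 44.4 CPM in the cKO-labelled libraries, against 340.6 and 393.3 CPM in the WT libraries. It fell by 3.13 on the log2 scale (SE 0.114; edgeR adjusted p = 8.91e-13), and Il1b to Casp1 per kilobase was 0.801 and 0.814 against 4.62 and 4.87 in WT. Il1a, the related cytokine, had 36.9 and 40.5 CPM in the cKO-labelled libraries, against 248.4 and 258.9 CPM in WT (-2.71, SE 0.107; edgeR adjusted p = 1.91e-12). Gsdme, a gasdermin cut by caspase-3, was also called, at -1.06 (SE 0.331; edgeR adjusted p = 0.0224), a call lost with DESeq2 and whenever 1 library was left out. Il18, the other caspase-1 substrate, was at 6.64 and 4.88 CPM against 7.25 and 8.69 CPM in WT and did not pass (-0.49, edgeR adjusted p = 0.122), though it did without cKO-labelled replicate 1 (-0.73, edgeR adjusted p = 0.0346). Ninj1, which ruptures the membrane of dying cells, was at 0.05 (edgeR adjusted p = 0.757).

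Of 13 inflammasome cofactors tested, 1 was called higher and 3 lower, a share close to the 28.8% called in either direction over all genes. The lower ones were Gbp5 and Gbp2, interferon-inducible GTPases that act on bacteria and their lipopolysaccharide, and Txnip, a thioredoxin-binding protein linked to Nlrp3. Gbp5 had 15.5 and 12.9 CPM in the cKO-labelled libraries, against 131.6 and 132.3 CPM in WT (-3.22, SE 0.123; edgeR adjusted p = 1.56e-12), and Gbp2 had 59.2 and 61.2 CPM against 222 and 219.5 CPM in WT (-1.87, SE 0.101; edgeR adjusted p = 1.28e-10). Naip2, the receptor for the type III secretion rod that acts through Nlrc4, was the higher one, at 82.4 and 76.3 CPM against 61.1 and 59.7 CPM in WT (0.39, SE 0.104; edgeR adjusted p = 0.00808). The Naip genes are close copies that can share reads, so this value is uncertain, and the call was lost without WT replicate 1 or without WT replicate 2. Naip2 to Nlrc4 per kilobase was 4.49 and 4.63 in the cKO-labelled libraries and 2.20 and 2.54 in the WT libraries. Nek7, which binds Nlrp3 during its assembly, was at 0.10 (edgeR adjusted p = 0.517).

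Of 10 inflammasome inhibitors tested, 5 were called lower and 1 higher. Among the lower ones, Tnfaip3, which encodes the NF-κB inhibitor A20, was at -1.23 (SE 0.098), Trim30a at -1.01 (SE 0.104) and Il1rn, the interleukin-1 receptor antagonist, at -0.76 (SE 0.091), with edgeR adjusted p of 2.83e-08, 8.00e-07 and 5.01e-06. Cflar had 408.9 and 301.3 CPM in the cKO-labelled libraries, against 678.8 and 598.6 CPM in WT (-0.85, SE 0.120; edgeR adjusted p = 3.19e-05). Nlrc3, a negative regulator of innate signalling, was the higher one (0.77, SE 0.189; edgeR adjusted p = 0.00477), a call lost without WT replicate 2. The other 5 caspases tested gave 0 calls, with Casp9 and Casp6 at 0.16 and 0.26 (edgeR adjusted p = 0.403 and 0.365). In the list of Casp8 partners and necroptosis, 3 of 9 were called lower and 0 higher. Zbp1, a sensor of nucleic acids that can engage Casp8, was at -1.02 (edgeR adjusted p = 3.21e-07), the necroptosis executor Mlkl at -0.83 (edgeR adjusted p = 1.80e-05) and Bid, which caspase-8 cuts, at -0.40 (edgeR adjusted p = 0.0137). Bid's call was lost with upper-quartile factors and without WT replicate 2.

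Among other genes of the NLR and HIN-200 families, 10 of 12 tested were called lower and 0 higher, with a median log2 fold change of -1.04. Nod1 and Nod2, which bind fragments of bacterial cell walls, were at -0.86 and -1.14 (edgeR adjusted p = 0.000177 and 0.000113). Ciita, the regulator of MHC class II genes, had 0.862 and 0.488 CPM in the cKO-labelled libraries and 4.70 and 4.31 CPM in the WT libraries (-2.75, edgeR adjusted p = 6.39e-05). It passed the filter on low counts through the WT libraries, where it is high. Nlrc5, the regulator of MHC class I genes, was at -0.94 (edgeR adjusted p = 2.13e-05). The Ifi200 genes, relatives of Aim2, ranged from Ifi205 at -2.19 to Ifi207 at -0.46, and reads may be shared among them. The dendritic cell markers, which include MHC class II genes, had 5 of 7 tested called lower, and their part in the value of Ciita was not tested.

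Of 16 priming receptors and transcription factors, 9 were called lower and 0 higher, and 5 were called lower without WT replicate 2. Irf1, an interferon-induced transcription factor, had 45.9 and 49.3 CPM in the cKO-labelled libraries, against 111 and 118 CPM in WT (-1.27, SE 0.106; edgeR adjusted p = 4.83e-08). Myd88, the adaptor of Toll-like receptors, was at -0.90 (edgeR adjusted p = 2.42e-06), Stat2 at -0.78 and Rela, a subunit of NF-κB, at -0.54 (edgeR adjusted p = 3.54e-05 and 0.000429). Irf8 was at -0.23 (edgeR adjusted p = 0.116) and passed without cKO-labelled replicate 1 (-0.32, edgeR adjusted p = 0.0199). Ifnar1, a chain of the interferon receptor, was at -0.15 (edgeR adjusted p = 0.310).

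**Figure D5:**
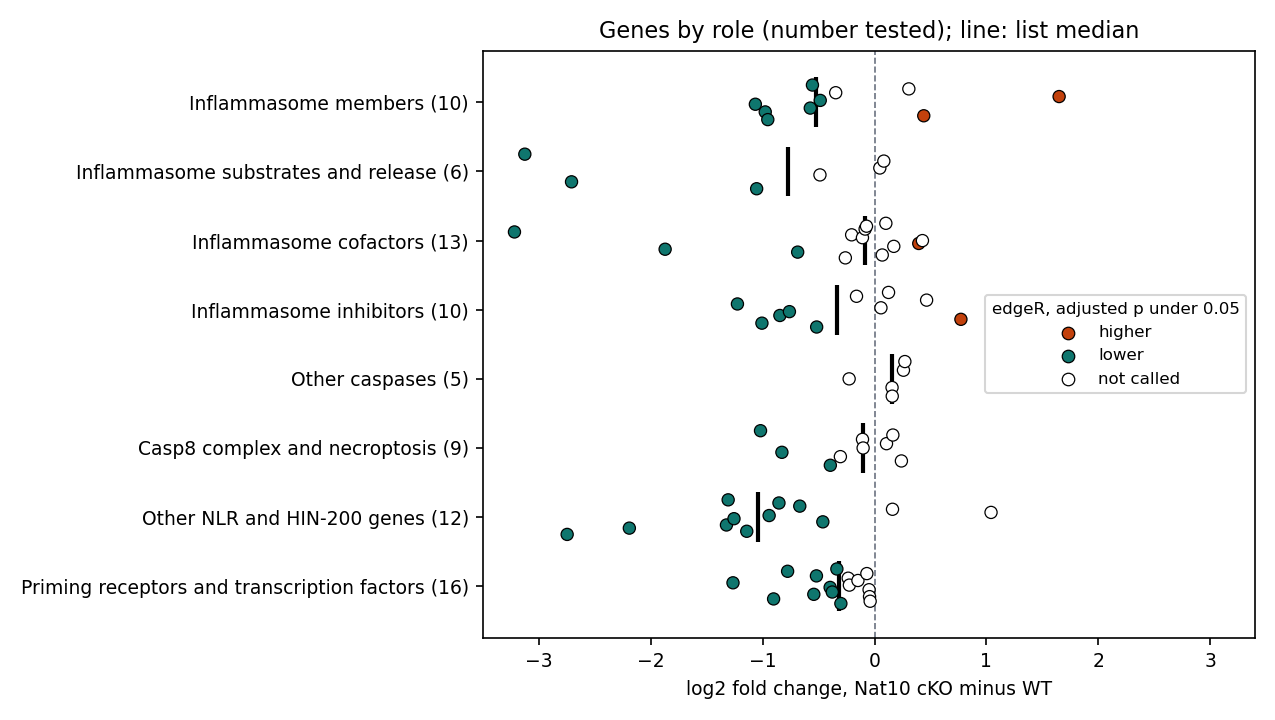
Log2 fold change of each tested gene, cKO-labelled minus WT, in the members and 7 pathway lists, with the number tested in parentheses and a line at each list's median. Filled points passed at an edgeR adjusted p under 0.05; Gbp5 (-3.22) and Il1b (-3.13) are the lowest points, and the other caspases have no called gene.

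The genes next to the members on the chromosome were called about as often as genes in general. Of 34 tested neighbours that are not members, up to 2 on each side at any distance, 4 were called higher, 5 lower and 25 neither, with a median log2 fold change of 0.05, beside 14.4% higher and 14.4% lower over all genes tested. At Aim2, the HIN-200 genes Ifi206, 2445 bases away, and Ifi213 were at -1.17 (edgeR adjusted p = 7.50e-06) and -1.22 (edgeR adjusted p = 0.000193). Casp8 and its neighbour Cflar, 36490 bases away, were called in opposite directions. The other lower neighbours, Dusp23 (-0.83) and Slamf8 (-0.90), are the nearest tested genes on the other side of Aim2, 717916 and 760310 bases away. The higher neighbours were Pimreg (2.40), 811299 bases from Nlrp1b, Naprt (0.81), 23548 bases from Gsdmd, and Zkscan17 (0.46) and Mprip (0.41), 14817 and 94349 bases from Nlrp3. Pimreg had 21 and 42 counts in the cKO-labelled libraries and 6 and 4 in the WT libraries, so it passed the filter on low counts through the cKO-labelled ones, and these 4 calls were each lost under at least 1 alternative.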

How the data were processed

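Per the file headers, the authors deposited unnormalized whole-number read counts per gene for 4 libraries. Per the submitters' processing notes, fastp 0.20.0, STAR 2.7.9a and featureCounts 2.0 were used with build mm39 (GRCm39). No source used here gives the strand setting or annotation release, so overlapping genes and close copies could share counts.

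filterByExpr kept 11448 genes. Counts scaled with TMM factors were tested with edgeR 4.0.16 (quasi-likelihood, two-sided, Benjamini-Hochberg) in R 4.3.3, with group as the only term and an adjusted p threshold of 0.05. Alternatives were RLE and upper-quartile factors, library size alone, no filter, a replicate block, DESeq2 1.42.0 and leaving out each library (the lone library left in a group was taken to vary like the other group), plus coding length, added after the data were seen. The procedure was run on counts simulated from its own fitted means and spread, which cannot show how it handles spread of another kind. Replicates differed by more than sampling noise (chi-square of 11.2 per gene for the cKO-labelled pair, 6.16 for WT).

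The members and lists were chosen with earlier results of these data known. Genes named are the members, genes of the lists, Nat10 and the 2 nearest tested genes on either side of a member; Cadm3, which overlaps a member, and the pathway-annotation genes of the closing section were chosen after their values were seen. Irgb10 was not matched in the table. Some list genes are not reported here by name.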

Additional observations from a re-analysis of the deposited data

How the results depend on the processing

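Nlrp3, Mefv, Casp4 and Casp1 were called lower under all 10 alternatives. The count of members called higher, 2 by edgeR, was 0 with DESeq2 and 0 to 3 when 1 library was left out, and that called lower was 5 to 7. For the 7 pathway lists together, 4 were called higher with upper-quartile factors and 0 to 4 when 1 library was left out, with 26 to 34 called lower. With 1 library left out, log2 fold changes ran from 1.10 to 2.31 for Nlrp1b, 0.11 to 0.46 for Pycard, 0.37 to 0.50 for Casp8, -0.68 to -0.44 for Nlrc4, -0.64 to -0.36 for Gsdmd and -0.55 to -0.20 for Aim2, each of which crossed the threshold at least once. DESeq2 gave 1.62 for Nlrp1b and 0.43 for Casp8, without a call. Pycard passed at 0.41 with upper-quartile factors and 0.37 with library size alone. Samples shared only a replicate number (the replicates numbered 1 correlated at 0.149 in their deviations); under the replicate block Pycard passed at 0.30 and the pathway lists had 3 higher and 36 lower. Ninj1 ran from -0.0092 to 0.0907 and reversed without WT replicate 1. Upper-quartile factors moved the median of all genes to 0.11. The cause of these changes was not tested. Calls over all genes were 1652 higher and 1650 lower by edgeR, 2247 and 1110 with upper-quartile factors, 2026 and 1252 with library size alone, 1065 and 1208 with DESeq2, 1058 and 1010 without WT replicate 1 and 864 and 973 without WT replicate 2.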

Other observations

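The deposited table annotates genes to the NOD-like receptor signalling pathway. Of that annotation, 92 tested genes were neither members nor in the pathway lists above. Of these, 35 were called lower and 4 higher in the cKO-labelled libraries, beside 14.4% lower and 14.4% higher over all genes tested. The median log2 fold change of the 92 genes was -0.16, and that of all genes tested was 0.0075. The lower ones include cytokine and chemokine genes downstream of these receptors: Il6 at -3.57, Cxcl1 at -3.23, Cxcl2 at -2.80, Tnf at -2.25 and Cxcl3 at -2.23. Nfkbia, which encodes the NF-κB inhibitor IκBα, was at -1.04, and Ikbkb, a kinase that acts on it, at -0.72. The 4 higher ones were Trip6 (0.99), the calcium channel genes Itpr1 (0.69) and Itpr3 (0.62), and Trpm2 (0.57), a cation channel, with edgeR adjusted p of 0.0165, 0.043, 0.00812 and 0.0155. The calls of Trip6, Itpr1 and Trpm2 were each lost under at least 1 alternative. These genes were chosen after their values were seen.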
